A study of Homo sapiens with 10 samples.

Results

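Transcript levels of genes that carry out DNA replication and mitosis were followed in ESI017, a human embryonic stem cell line, after activation of WNT signalling. The set was a list of 42 gene symbols, of which 41 were found under their own symbol among 35940 symbols, 1 gene identifier each. They comprised 21 replication genes (MCM2 to E2F1) and 20 mitosis genes (CCNA2 to UBE2C), and all 41 were among the 15251 genes abundant enough to be tested. The other listed gene, KIF23, which codes for a kinesin of the central spindle, had its identifier ENSG00000137807 under another symbol, AC027237.1, and is reported apart.

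All cells were wild type, were kept in the defined pluripotency medium mTeSR1 and were plated 24 h before treatment. The control cells, called mTeSR1, received no addition. Treated cells received WNT3A, a secreted WNT ligand, at 300 ng/ml, or CHIR99021, an inhibitor of the kinase GSK3, at 8 µM, each for 6 h or 18 h. The series held 10 bulk RNA libraries in 5 groups of 2, from 2 biological repeats of 1 cell line: replicates 1 and 2 of 4 groups came from repeats 1 and 2, and both CHIR99021 18 h libraries came from repeat 2. The 2 libraries of CHIR99021 18 h therefore do not show the spread between biological repeats. The sources used here do not say whether a solvent control was used.

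Before S phase, the origin recognition complex, CDC6 and CDT1 load the ring-shaped MCM helicase onto DNA. CDC45 and the GINS complex then turn it into the moving replicative helicase, and polymerases, the PCNA clamp and nucleotide-making enzymes copy the genome. In mitosis, cyclin B with CDK1 drives entry, Aurora and Polo kinases and kinesins build the spindle, the checkpoint proteins wait for attached chromosomes, and the anaphase-promoting complex with CDC20 ends the stage. Replication genes are textbook targets of E2F factors, and mitosis genes of the DREAM and MMB-FOXM1 complexes, which act through the cell cycle genes homology region (CHR). Pluripotent stem cells are known for a short G1 phase. WNT signalling stabilises beta-catenin, which acts on genes with TCF/LEF factors, and CCND1, which codes for cyclin D1, is a known target in many cells.

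The promoters of both gene groups are shown because the share holding certain letters differed between replication and mitosis genes, a property that no expression value entered. RefSeq promoters of the build GRCh38.p14, running from 250 bases before to 50 bases after the start, were matched by symbol for 19 of the 21 replication genes and 17 of the 20 mitosis genes. MCM4, MCM5, AURKA, TPX2 and UBE2C had no entry in the table. Each stretch below runs 5′ to 3′ on the gene's strand and ends at the last base before the start, or before the first annotated exon base. Capitals mark E2F matches in MCM6 and E2F1, and CHR and CCAAT matches in CDK1 and CDC20.
MCM6 (chr2:135876444-135876693, minus strand): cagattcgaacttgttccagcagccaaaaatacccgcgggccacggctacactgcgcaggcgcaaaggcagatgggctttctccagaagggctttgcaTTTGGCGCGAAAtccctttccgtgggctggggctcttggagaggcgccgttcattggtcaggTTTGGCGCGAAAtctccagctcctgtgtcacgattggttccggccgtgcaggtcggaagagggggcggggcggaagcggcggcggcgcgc
E2F1 (chr20:33686405-33686635, minus strand): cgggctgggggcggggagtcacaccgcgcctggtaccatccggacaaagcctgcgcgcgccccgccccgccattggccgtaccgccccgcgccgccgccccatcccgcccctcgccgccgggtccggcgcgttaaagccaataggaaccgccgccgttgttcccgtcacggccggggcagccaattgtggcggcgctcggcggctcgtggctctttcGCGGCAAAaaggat
CDK1 (chr10:60778081-60778330, plus strand): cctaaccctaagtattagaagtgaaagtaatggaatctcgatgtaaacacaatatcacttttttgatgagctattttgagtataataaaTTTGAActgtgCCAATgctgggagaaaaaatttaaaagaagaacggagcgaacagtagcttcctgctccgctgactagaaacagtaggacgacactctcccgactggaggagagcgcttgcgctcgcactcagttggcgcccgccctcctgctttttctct
CDC20 (chr1:43358731-43358954, plus strand): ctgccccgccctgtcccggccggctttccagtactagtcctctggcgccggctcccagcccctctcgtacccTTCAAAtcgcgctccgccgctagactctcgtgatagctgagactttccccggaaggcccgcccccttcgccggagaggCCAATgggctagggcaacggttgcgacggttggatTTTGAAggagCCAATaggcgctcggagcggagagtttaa
MCM6, a helicase subunit, held the 8-letter E2F match on both strands at 2 places, the first letters of which lay 152 and 148, and 90 and 86, bases before the start. E2F1, itself an E2F factor, held 1 match in the stretch shown, 33 bases before its start, and 1 more that overlaps an exon and is not printed. CDC20 held a CHR match 65 bases before its start with a CCAAT match beginning 55 bases before it, and a second pair at 178 and 100 bases. CDK1 held the CHR letters 161 and CCAAT 150 bases before its start. The split was partial: E2F letters were in 13 of 19 replication promoters and CHR letters in 11 of 17 mitosis promoters. MCM6 and CDK1 also held letters that were more frequent in the other group. MCM6 is, with RRM1, 1 of the 2 replication promoters with CHR letters (not in capitals). CDK1 is the 1 mitosis promoter with an E2F match, which lies after the start and is not printed.

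E2F letters (TTTCCCGC, TTTGGCGC, TTTCGCGC or TTTGCCGC, either strand) were found in 13 of 19 replication promoters, or 68.4%, and in 1 of 17 mitosis promoters, or 5.88%. The share over 11309 promoters of genes tested was 5.15%, and over all 27305 promoters of the table it was 3.33%. CHR letters (the run TTTGAA or the run TTCGAA, either strand) showed the opposite split, in 2 of 19 replication promoters (10.5%) and 11 of 17 mitosis promoters (64.7%), against 11.0% of tested and 16.6% of all promoters. CCAAT was in 73.7% of replication and 82.4% of mitosis promoters, above the 36.1% of tested and 35.7% of all promoters. CHR and CCAAT stood together in 10 of 17 mitosis promoters (58.8%), against 4.6% of tested promoters. TCF/LEF letters (the run CTTTGAA, which holds the CHR letters, the run CTTTGAT, the run CTTTGTA or the run CTTTGTT, either strand) were in 1 promoter of each group, GINS1 and KIF20A, or 5.26% and 5.88%, against 8.59% of tested promoters. These shares carry no test, and a match is a run of letters, not a shown site.

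**Figure D1:**
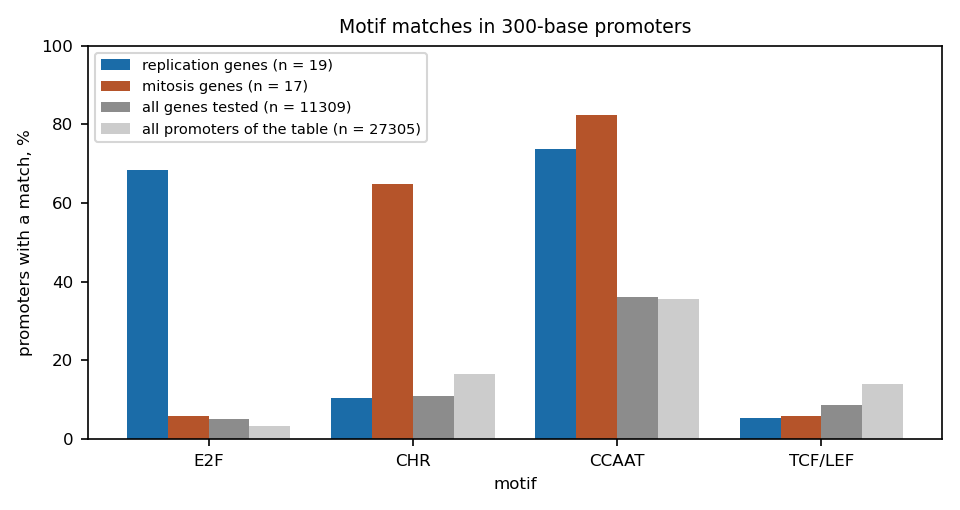
Share of 300-base promoters (percent, vertical axis) with at least 1 match to each motif (horizontal axis), for replication genes, mitosis genes, all genes tested and all promoters of the table. The E2F bar is tall in the replication genes (68.4%), the CHR bar in the mitosis genes (64.7%), and the TCF/LEF bars of both (5.26% and 5.88%) are below those of all genes tested (8.59%).

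Library totals ran from 16648336 to 26732910 estimated counts. As a check of the response, 6 fixed genes were read: AXIN2, SP5, LEF1, NKD1, CCND1 and FOXB1. They were chosen with earlier results of these data known. Of the 6, 5 rose with WNT3A at 6 h and at 18 h, and 2, SP5 and FOXB1, with CHIR99021 at 6 h. All 6 rose with CHIR99021 at 18 h (edgeR quasi-likelihood test, adjusted p under 0.05). That last fit held a block for biological repeat, and the others did not. With the block 6 rose after 18 h of WNT3A, and without it 5 rose after 18 h of CHIR99021. The summed level of 9 pluripotency markers was 9866 and 10400 CPM (counts per 1e+06 counts) in mTeSR1 and lower, 7976 to 9629 CPM, in all 8 treated libraries. The marker sums in this paragraph are scaled by library totals, and the levels below by the TMM-scaled library unless stated otherwise. Primitive streak and mesoderm markers (5 genes) summed to 2.17 and 3.14 CPM in mTeSR1, 71.2 and 72.0 with WNT3A at 6 h, 236 and 241 at 18 h, 6.76 and 9.25 with CHIR99021 at 6 h, and 23.1 and 215 at 18 h, where replicate 1 was the low library. A list of 5 fibroblast genes summed to 504 to 547.5 CPM in mTeSR1, 353 to 379.6 with WNT3A at 6 h and 244 to 269.7 at 18 h, and 388.5 to 458 with CHIR99021 at 6 h and 257.5 to 339.5 at 18 h. Of its defining members, DCN was at 0 in all 10 libraries and LUM in all but mTeSR1 replicate 1. COL3A1 was also too low to test, which left COL1A1 and THY1. The sum does not by itself show that fibroblasts were present, and any part of such cells in the results was not tested. Replicate 2 of mTeSR1 and replicate 2 of WNT3A 6 h stood apart: the deviation of a gene from its mean over libraries went up with transcript length in them (Spearman correlation over 14925 genes, 0.350 and 0.449), and not in the other 8 (-0.293 to -0.0123). The median changes of the members against mTeSR1 or WNT3A 6 h are given below with and without these libraries. Those of other gene lists are given only with them. In bulk RNA, fewer cells in a cell cycle stage and less RNA per cell cannot be told apart.

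Together the 41 genes took 0.724% to 0.906% of all counts. Summed over the 21 replication genes, the level was 4326 ± 29.7 CPM in mTeSR1, 4643 ± 59.4 with WNT3A at 6 h and 4678 ± 102 at 18 h, 4424 ± 57.3 with CHIR99021 at 6 h and 4408 ± 202 at 18 h (mean ± SD, n = 2 each, scaled by TMM). At this scaling the 2 highest group means were those of WNT3A. The WNT3A libraries (4601 to 4750 CPM) and both CHIR99021 6 h libraries (4384 and 4465 CPM) lay above both mTeSR1 libraries (4305 and 4347 CPM). Those of CHIR99021 18 h (4551 and 4266 CPM) lay on either side of them. Scaled by library totals, the mean was 4486 CPM with WNT3A at 6 h and 4490 with CHIR99021 at 6 h. The mitosis genes summed to 3300 ± 479, 3716 ± 934, 3364 ± 96.9, 3026 ± 66.5 and 3164 ± 264 CPM in the same order, with a wide spread in the 2 groups that hold the length-skewed libraries. The ratio of the mitosis sum to the replication sum was 0.837 in mTeSR1 replicate 2 and 0.934 in WNT3A 6 h replicate 2, against 0.664 to 0.737 in the other 8 libraries. Without MKI67, CENPF and CENPE, whose transcripts are the longest of the set, the ratio was 0.531 to 0.581 in all 10.

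Per kilobase of the longest annotated transcript, the highest levels in mTeSR1 were those of MCM7 (169 ± 16.6 CPM per kb), MCM3 (146 ± 7.26), MCM4 (144 ± 24.5) and PCNA (132 ± 12.9; SD, n = 2), of which the last 3 differed by less than the SD of MCM4. The lowest were CENPE (8.58 ± 1.84 CPM per kb), CDC25C (9.11 ± 0.252) and CDC45 (10.1 ± 1.43). The level of a gene over the 10 libraries spanned 1.18-fold from lowest to highest in AURKA, 1.21-fold in RRM2 and 1.23-fold in MCM3, the steadiest, and 3.79-fold in MKI67, 2.73-fold in CENPF, 2.66-fold in CENPE and 2.63-fold in UBE2C, the most variable. The heat map of members by library shows where these departures fell. Below, libraries of single genes are described as above or below others. The share of all genes in the same order was not computed, except for the pairs of groups given later.

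**Figure D2:**
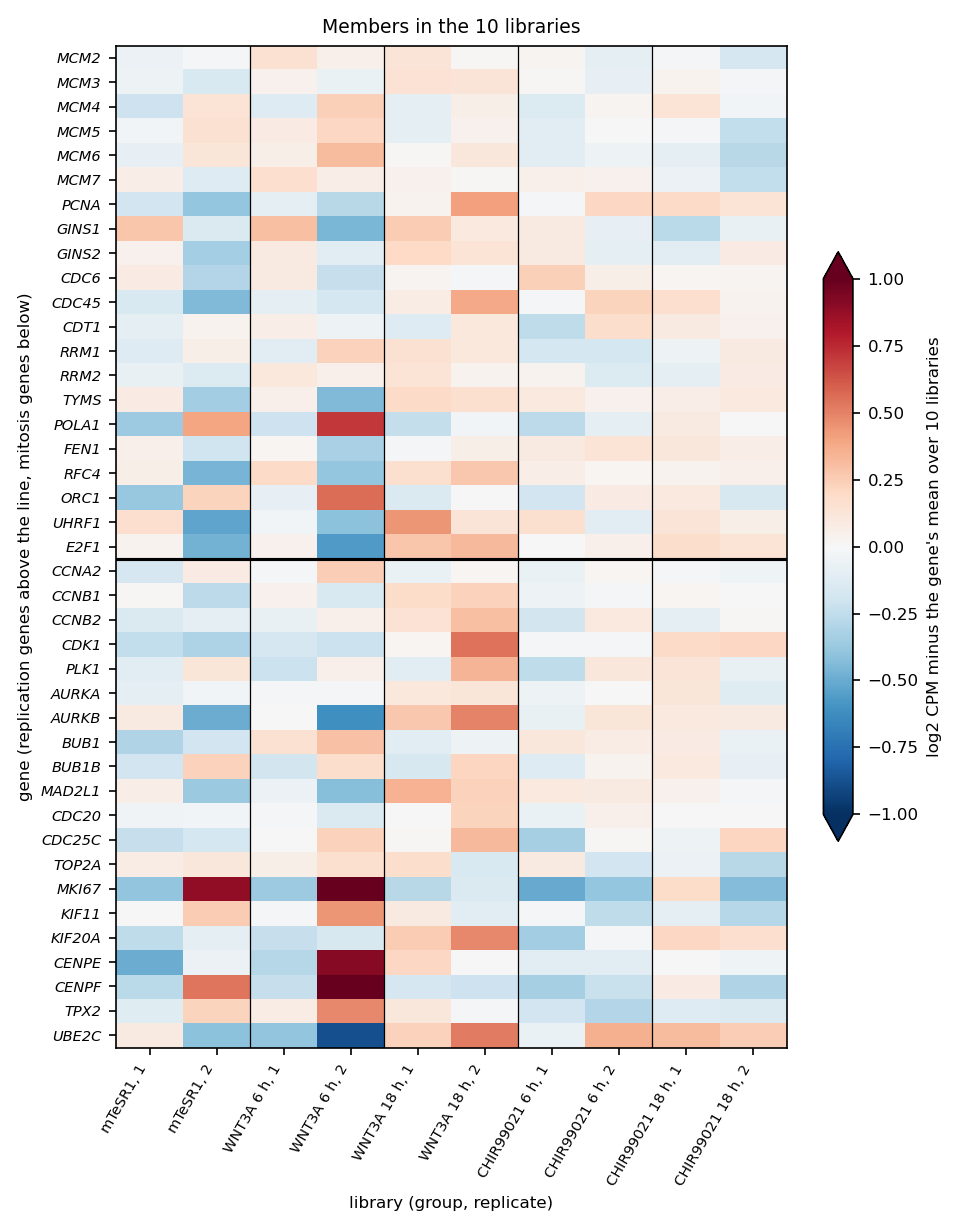
Level of each of the 41 genes (rows, replication genes above the line) in each library (columns, group and replicate) as log2 CPM minus the gene's mean over the 10 libraries, with colours ending at 1 in either direction. The strongest colours stand in replicate 2 of mTeSR1 and of WNT3A 6 h, where MKI67, CENPF and POLA1 are high and UBE2C, AURKB and E2F1 are low, and a paler red band covers many genes in both WNT3A 18 h libraries.

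Among the origin-licensing genes, the helicase subunits spanned 1.23-fold (MCM3) to 1.51-fold (MCM6) over the libraries. MCM2 was at 349.9 and 358 CPM in mTeSR1, 403 and 376 with WNT3A at 6 h, 397 and 366 at 18 h, 369.8 and 339.8 with CHIR99021 at 6 h, and 360.3 and 323 at 18 h (replicates 1 and 2). The libraries of WNT3A lay above both controls, and those of CHIR99021 overlapped them. The loading factor CDC6 was at 149 and 115 CPM in mTeSR1 and between 120 and 165 in the 8 treated libraries, so the groups overlapped. CDT1, its partner in loading, was at 144 and 158 CPM in mTeSR1 and 164 and 158.3 with CHIR99021 at 18 h, the 1 group with both libraries above both controls, and ran from 129 to 173 CPM in all. ORC1, the largest subunit of the origin recognition complex, was at 77.6 and 117 CPM in mTeSR1 and at 95.1 and 148 with WNT3A at 6 h, high in replicate 2 of both.

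Of the genes of the moving fork, PCNA, the sliding clamp, was at 191 and 167 CPM in mTeSR1, 204 and 180 with WNT3A at 6 h, 223 and 289 at 18 h, 215 and 252 with CHIR99021 at 6 h, and 249.5 and 239 at 18 h. CDC45, which joins the helicase as it starts to move, was at 23.1 and 18.9 CPM in mTeSR1, 24.1 and 22.8 with WNT3A at 6 h, 27.1 and 33.4 at 18 h, 25.5 and 30.1 with CHIR99021 at 6 h, and 28.8 and 26.3 at 18 h. Every 18 h library and both CHIR99021 6 h libraries were above both controls for these 2 genes. The other fork members (GINS1, GINS2, RFC4, POLA1 and FEN1) spanned 1.38-fold (FEN1) to 2.10-fold (POLA1) over the libraries. POLA1, the catalytic subunit of the polymerase that lays down primers, was highest in replicate 2 of mTeSR1 (161 CPM) and of WNT3A 6 h (199.7 CPM), against 95.3 to 130.4 CPM elsewhere.

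RRM2, the regulated subunit of ribonucleotide reductase, was at 192 and 185 CPM in mTeSR1, 218 and 209 with WNT3A at 6 h, 223 and 208 at 18 h, 208 and 184 with CHIR99021 at 6 h, and 189 and 215 at 18 h. WNT3A libraries lay above both controls and CHIR99021 libraries overlapped them. E2F1 was at 71.1 and 50.03 CPM in mTeSR1, 71.2 and 46.9 with WNT3A at 6 h, 83.9 and 86.6 at 18 h, 69.0 and 71.8 with CHIR99021 at 6 h, and 78.3 and 76.1 at 18 h. UHRF1, which carries DNA methylation through replication, was at 125 and 77.0 CPM in mTeSR1, 109 and 83.6 with WNT3A at 6 h, 151 and 122 at 18 h, 124 and 102 with CHIR99021 at 6 h, and 121 and 116 at 18 h. Both genes were low in replicate 2 of mTeSR1 and of WNT3A 6 h, and E2F1 was above both controls in all 4 libraries of 18 h.

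The genes of mitotic entry were led by CDK1, the kinase partner of B cyclins. It was at 61.7 and 59.0 CPM in mTeSR1, 65.2 and 63.0 with WNT3A at 6 h, 74.2 and 107 at 18 h, 72.7 and 72.4 with CHIR99021 at 6 h, and 83.7 and 84.4 at 18 h, so that all 8 treated libraries were above both controls. How many of all genes had this order was not computed. CCNB1, which codes for cyclin B1, was at 210.0 and 174 CPM in mTeSR1 and at 236 and 244 with WNT3A at 18 h, with the other 6 libraries between 187.5 and 214. CCNA2, the cyclin of S phase and G2, ran from 181 to 242 CPM and overlapped between all groups and the control. Of the mitotic kinases, PLK1 was at 162 and 191 CPM in mTeSR1 and 162 and 223 with WNT3A at 18 h, and AURKA was at 78.7 and 82.7 CPM in mTeSR1 and 90.5 and 91.5 with WNT3A at 18 h. AURKB, the kinase of the chromosomal passenger complex, was at 102 and 67.8 CPM in mTeSR1 and 115 and 135 with WNT3A at 18 h, and its lowest value, 62.5 CPM, was in WNT3A 6 h replicate 2.

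BUB1, a spindle checkpoint kinase, was at 164 and 176 CPM in mTeSR1, 225 and 247 with WNT3A at 6 h, 187 and 195 at 18 h, 218 and 212 with CHIR99021 at 6 h, and 214 and 193 at 18 h. All treated libraries lay above both controls, an order whose share over all genes was not computed, and the 6 h libraries of WNT3A were the highest. MAD2L1, the checkpoint protein that holds CDC20, was at 101 and 74.2 CPM in mTeSR1 and at 122 and 113 with WNT3A at 18 h. CDC20, the activator of the anaphase-promoting complex, was at 198 and 199 CPM in mTeSR1 and ran from 184 to 238 CPM over the treated libraries, both ends of that range being WNT3A libraries. UBE2C, the ubiquitin-conjugating enzyme of the complex, was at 99.4 and 70.2 CPM in mTeSR1, 71.2 and 50.8 with WNT3A at 6 h, 110 and 134 at 18 h, 89.3 and 120 with CHIR99021 at 6 h, and 116 and 111 at 18 h. Within each repeat its WNT3A 6 h library was below its control and its WNT3A 18 h library above it.

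KIF20A, a kinesin needed for cytokinesis, was at 62.0 and 69.6 CPM in mTeSR1, 63.1 and 66.2 with WNT3A at 6 h, 88.1 and 103 at 18 h, 58.1 and 73.0 with CHIR99021 at 6 h, and 85.6 and 83.0 at 18 h. The 4 libraries of 18 h were all above the 6 others. TOP2A, the topoisomerase that untangles sister chromatids, ran from 326 to 447 CPM, with both ends in the 18 h groups. MKI67, whose protein Ki-67 coats mitotic chromosomes and is used to mark proliferating cells, was at 241 and 585 CPM in mTeSR1, 246 and 848 with WNT3A at 6 h, 261 and 287 at 18 h, 223 and 241 with CHIR99021 at 6 h, and 359.7 and 234 at 18 h. Its 2 high values were those of the length-skewed libraries. KIF23, read by its identifier, ran from 83.1 to 118 CPM, and its log2 change was between -0.17 and 0.08 in the 4 comparisons with mTeSR1.

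**Figure D3:**
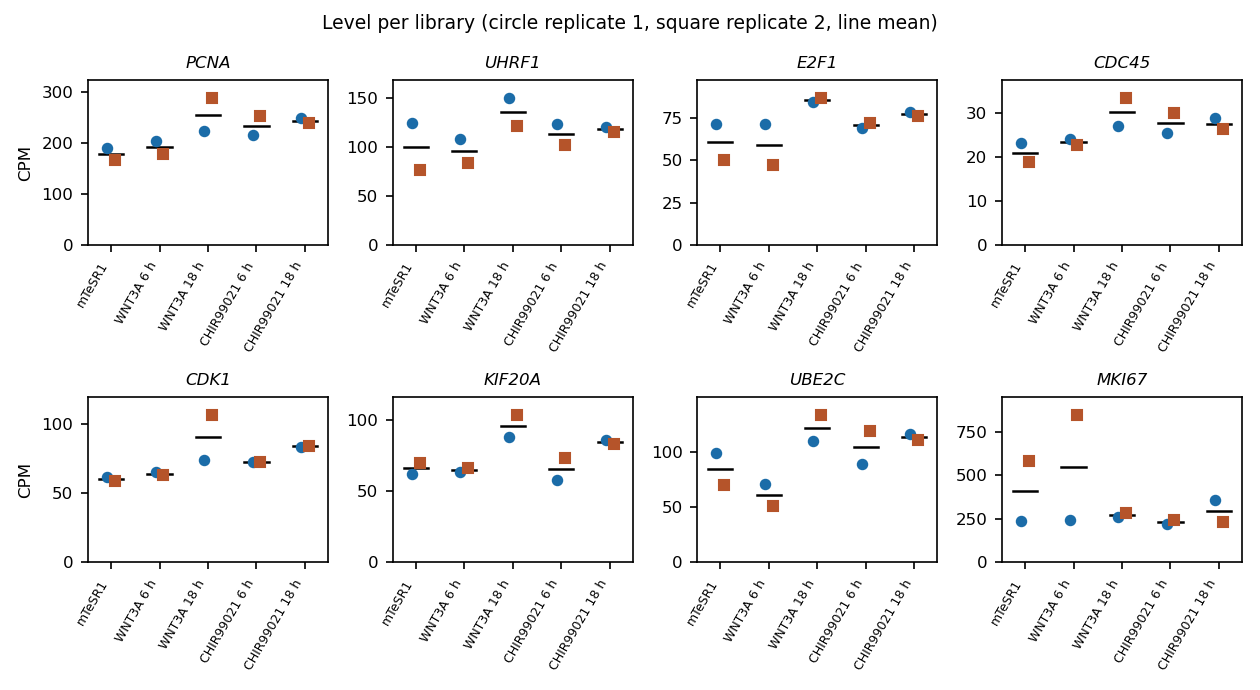
Level (CPM, vertical axis from 0) of 8 of the genes in each group (horizontal axis), with circles for replicate 1, squares for replicate 2 and a line at the mean of both. PCNA, CDC45, CDK1, E2F1 and KIF20A lie above both control points at 18 h, and MKI67 shows the replicate spread of mTeSR1 (241 and 585) and WNT3A 6 h (246 and 848).

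After 6 h of WNT3A, no member passed the test (edgeR quasi-likelihood test with Benjamini-Hochberg adjustment over all 15251 genes, called at adjusted p under 0.05), where 0.433% of all genes did. DESeq2 called 0 (1.63% of all genes), and 1 member, BUB1, had an unadjusted p under 0.05 (6.16% of all genes). The median log2 change was 0.10 for the replication genes and 0.08 for the mitosis genes, against 0.01 for all genes, and 29 of 41 values were above 0. Without the 2 length-skewed libraries these medians were 0.0841 and 0.0212. Leaving out 1 library at a time, the replication median ran from 0.0326 without mTeSR1 replicate 2 (0.0369 without WNT3A 6 h replicate 1) to 0.165 without WNT3A 6 h replicate 2. The mitosis median ran from 0.0172 without WNT3A 6 h replicate 2 (0.0321 without mTeSR1 replicate 1) to 0.106 without WNT3A 6 h replicate 1. Of the replication genes, ORC1 (0.32), POLA1 (0.26) and RRM2 (0.18) had the highest log2 changes and GINS1 (-0.11), FEN1 (-0.07) and UHRF1 (-0.07) the lowest. Of the mitosis genes, CENPE (0.69), BUB1 (0.47) and MKI67 (0.41) stood at the top and UBE2C (-0.48), AURKB (-0.10) and MAD2L1 (-0.09) at the bottom. BUB1 had a log2 change of 0.47 ± 0.13 (standard error; edgeR adjusted p = 0.274), and the log2 ratio was 0.45 in repeat 1 and 0.48 in repeat 2. UBE2C had ratios of -0.48 and -0.47 in the 2 repeats and an edgeR adjusted p of 0.920. The 95% interval of the change lay within 2-fold either way for 37 of the 41 genes.

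After 18 h of WNT3A the levels leaned upward but no member passed the edgeR test, where 2.1% of all genes did; DESeq2 called 0 (5.31% of all genes), and 8 members, or 19.5%, had an unadjusted p under 0.05, against 13.6% of all genes. Of 41 values 33 were above 0, against 52.3% of all genes, with a median log2 change of 0.11 in the replication genes, 0.17 in the mitosis genes and 0.02 in all genes. Both WNT3A libraries were above both controls for 10 of 21 replication genes (MCM2, MCM3, PCNA, GINS2, CDC45, RRM1, RRM2, TYMS, RFC4 and E2F1) and 12 of 20 mitosis genes (CCNB1, CCNB2, CDK1, AURKA, AURKB, BUB1, MAD2L1, CDC20, CDC25C, KIF20A, CENPE and UBE2C), where 21.8% of all genes were. Both were below both controls for 0 members of either set, where 21.3% of all genes were. The highest replication changes were those of CDC45 (log2 0.53 ± 0.18, edgeR adjusted p = 0.209), PCNA (0.52 ± 0.17, 0.187) and E2F1 (0.49 ± 0.22, 0.374), and the lowest were POLA1 (-0.20), MCM5 (-0.09) and ORC1 (-0.02). The highest mitosis changes were CDK1 (log2 0.58 ± 0.17, edgeR adjusted p = 0.142), AURKB (0.56 ± 0.24, 0.354) and KIF20A (0.54 ± 0.15, 0.135), and the lowest were MKI67 (-0.59), CENPF (-0.38) and KIF11 (-0.14). The 13 mitochondrially encoded genes had a median log2 change of -0.72 in this comparison. Of these 13, edgeR called 0, 8 had an unadjusted p under 0.05, DESeq2 called 2, and edgeR with the replicate block called 5 lower. Their part in the members' changes was not tested.

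With the biological repeat as a block in the edgeR fit, KIF20A passed: it rose by 0.54 ± 0.11 on the log2 scale (adjusted p = 0.0324), the single member among the 2.07% of genes called higher in that fit. The log2 ratio of KIF20A was 0.51 in repeat 1 and 0.57 in repeat 2. Each repeat holds 1 library of WNT3A 18 h and 1 of mTeSR1, so the counts that follow describe single pairs of libraries. The share of all genes higher in each pair was not computed. Within repeat 1, whose libraries have no upward length trend, 35 of 41 members were higher with WNT3A at 18 h. Among them were all 20 mitosis genes, from PLK1 at a log2 ratio of 0.0035 to CENPE at 0.71. The median ratio there was 0.12 for the replication genes and 0.17 for the mitosis genes, against 0.0012 for all genes. Within repeat 2, where the control is the length-skewed library, 29 of 41 were higher, from MKI67 at -1.03 to AURKB at 0.99, and the ratio went down with transcript length over the 41 genes (Spearman -0.708, against -0.147 in repeat 1; the genes share their libraries). Without mTeSR1 replicate 2 and WNT3A 6 h replicate 2, the median change was 0.15 for the replication genes and 0.22 for the mitosis genes, and edgeR again called 0 members.

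After 6 h of CHIR99021, edgeR called 0 of 41 members, where 0.0197% of all genes were called; DESeq2 called 0 (0.426% of all genes), and the unadjusted p of 2 was under 0.05 (4.74% of all genes). The median log2 change was 0.07 for the replication genes and 0.03 for the mitosis genes, and 0.0136 and 0.0623 without both length-skewed libraries. Leaving out 1 library at a time, the replication median ran from 0.0142 without mTeSR1 replicate 2 to 0.1403 without mTeSR1 replicate 1 (0.1132 without CHIR99021 6 h replicate 2). The mitosis median changed sign, from -0.0423 without mTeSR1 replicate 1 and -0.0318 without CHIR99021 6 h replicate 2 to 0.0631 without mTeSR1 replicate 2 and 0.105 without CHIR99021 6 h replicate 1. CDC45 (0.40), PCNA (0.39) and CDC6 (0.24) were the highest replication genes, and POLA1 (-0.24), RRM1 (-0.14) and MCM5 (-0.12) the lowest. BUB1 (0.34), UBE2C (0.30) and CDK1 (0.27) were the highest mitosis genes, and MKI67 (-0.83), CENPF (-0.47) and TPX2 (-0.31) the lowest. All 4 comparisons with mTeSR1 share the same 2 control libraries, so a gene that is high or low in them moves in each.

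After 18 h of CHIR99021, edgeR with the repeat as a block called 0 of 41 members, where 2.78% of all genes were called; DESeq2 called 0 (6.02% of all genes), and the unadjusted p of 4 members, or 9.76%, was under 0.05, against 19.6% of all genes. UHRF1 came nearest (log2 0.47 ± 0.14, edgeR adjusted p = 0.118), followed among the replication genes by the size of change of E2F1 (0.49 ± 0.19, 0.216) and PCNA (0.42 ± 0.17, 0.226). The lowest replication values were those of MCM6 (-0.28), MCM5 (-0.26) and POLA1 (-0.23). Of the mitosis genes, UBE2C (0.46), CDK1 (0.42) and AURKB (0.38) were highest and MKI67 (-0.77), CENPF (-0.51) and KIF11 (-0.35) lowest. Both libraries were above both controls for 6 of 21 replication genes (MCM3, PCNA, CDC45, CDT1, FEN1 and E2F1) and 8 of 20 mitosis genes (CCNB2, CDK1, BUB1, CDC20, CDC25C, KIF20A, CENPE and UBE2C), where 24.2% of all genes were. Both were below both controls for 1 replication gene, MCM6, and 3 mitosis genes, TOP2A, KIF11 and TPX2, where 22.7% of all genes were. The median log2 change was 0.15 for the replication genes and 0.03 for the mitosis genes. These medians were 0.06 and 0.04 without both length-skewed libraries, and 0.0918 and 0.0049 without mTeSR1 replicate 2 alone. With an offset for each library's length trend, UBE2C was at 0.17, AURKB at 0.16 and PCNA at 0.22. The highest mitosis changes with this offset were those of MAD2L1 (0.35), CDK1 (0.31) and CENPE (0.28), and the mitosis median was -0.06. MAD2L1 has a long transcript (5468 bases) but was lower in mTeSR1 replicate 2 than in replicate 1, the reverse of the length trend.

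**Figure D4:**
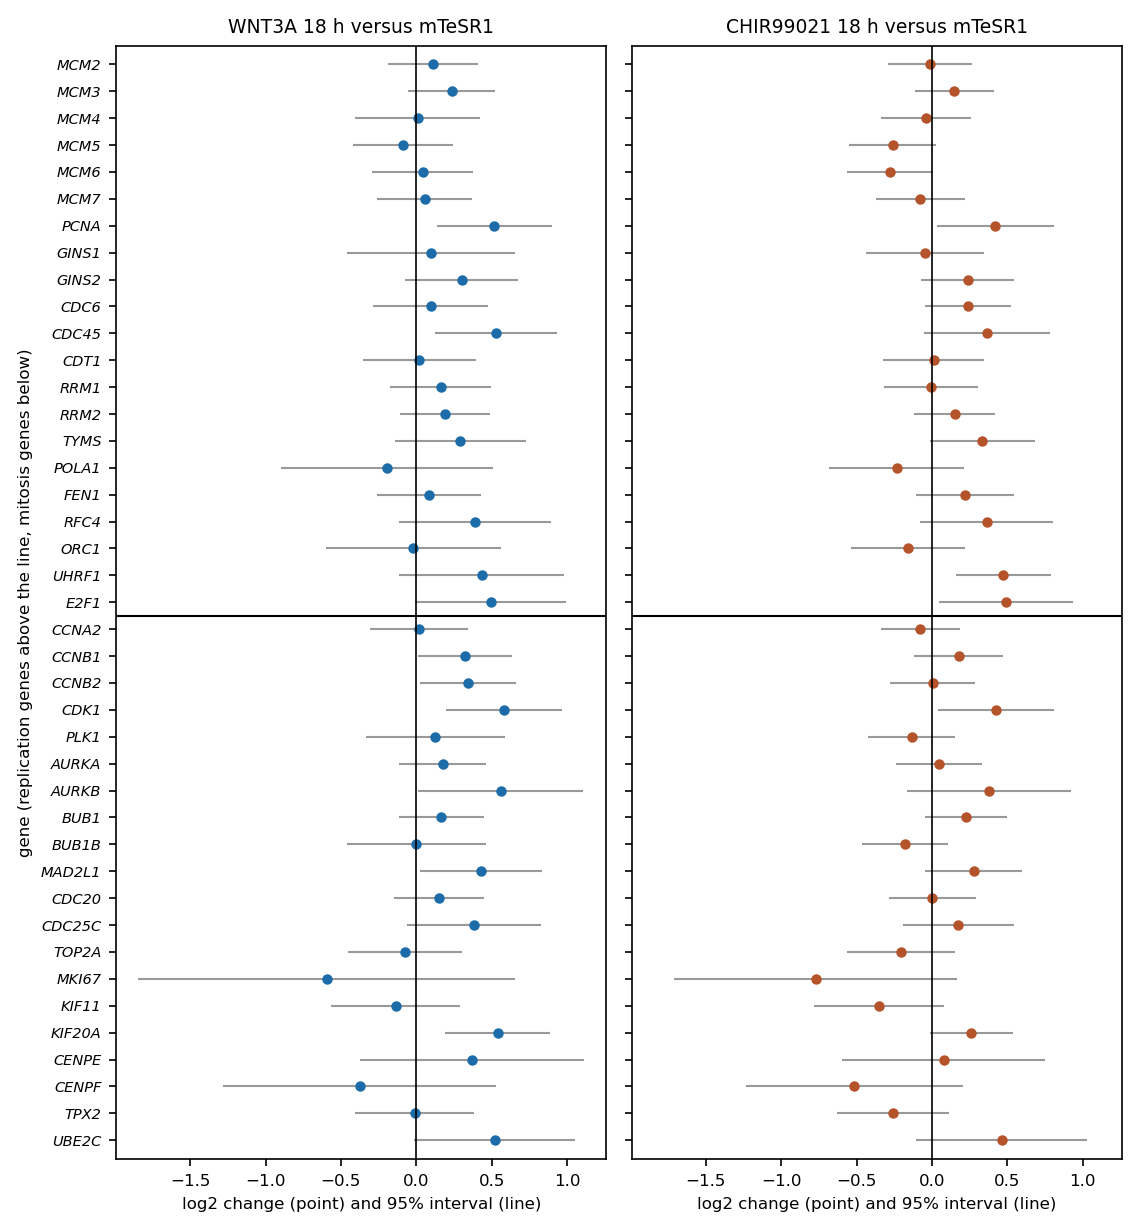
Log2 change (points) and its 95% interval (lines) of each of the 41 genes, replication genes above the line and mitosis genes below, after 18 h of WNT3A (left) and of CHIR99021 (right) against mTeSR1. With WNT3A 33 of 41 points lie right of 0, with CHIR99021 24 of 41, and the widest intervals belong to MKI67, CENPF and CENPE. The left panel is from the fit without the block for biological repeat and the right from the fit with it. Interval widths therefore cannot be compared between the panels as a difference between treatments.

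From 6 h to 18 h of WNT3A, edgeR called 0 of 41 members, where 0.144% of all genes were called; DESeq2 called 1 of 41, UBE2C, where it called 2.72% of all genes. The unadjusted p of 8 members, or 19.5%, was under 0.05, against 13.2% of all genes. UBE2C had a log2 change of 1.00 ± 0.24, with an edgeR adjusted p of 0.150 and a DESeq2 adjusted p of 0.00745. Its log2 ratio was 0.62 in repeat 1 and 1.40 in repeat 2, where the 6 h library is length-skewed and UBE2C, at 914 bases, is the shortest of the 41 transcripts. With the replicate block, KIF20A rose by 0.56 ± 0.11 (edgeR adjusted p = 0.0498), with 0.57% of all genes called higher in that fit. Both 18 h libraries were above both 6 h libraries for 7 of 21 replication genes (MCM3, PCNA, GINS2, CDC45, TYMS, UHRF1 and E2F1) and 9 of 20 mitosis genes (CCNB1, CCNB2, CDK1, AURKA, AURKB, MAD2L1, CDC20, KIF20A and UBE2C), where 20.9% of all genes were. Both were below for MCM5 and MCM7 of the replication genes and for BUB1 of the mitosis genes, where 21.9% of all genes were. The median log2 change was 0.07 for the replication genes and 0.09 for the mitosis genes, and 0.029 and 0.176 without the length-skewed libraries.

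From 6 h to 18 h of CHIR99021, edgeR called 0 of 41 members, where 0.00656% of all genes were called; DESeq2 called 0 (0.872% of all genes), and the unadjusted p of 0 was under 0.05 (6.85% of all genes). The largest change was that of UHRF1 (log2 0.28 ± 0.14), next to KIF20A (0.27 ± 0.12, edgeR adjusted p = 0.734). The difference between the 2 treatments in their change over time was tested directly: edgeR called 0 of 41 members and 0.0% of all genes, DESeq2 called 0 (0.0787% of all genes), and UBE2C and MAD2L1 were the 2 members with an unadjusted p under 0.05 (3.76% of all genes). UBE2C had a difference of -0.85 ± 0.33 on the log2 scale and an edgeR adjusted p of 0.927.

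At matched times the treatments were compared with each other. At 6 h, CHIR99021 against WNT3A gave 0 of 41 members called by edgeR, where 0.00656% of all genes were called; DESeq2 called 0 (0.197% of all genes), and the unadjusted p of 2 was under 0.05 (6.53% of all genes). Those 2 were UBE2C (log2 0.78 ± 0.24) and TPX2 (-0.54 ± 0.17), a spindle assembly factor. The median log2 difference was -0.02 for the replication genes and -0.04 for the mitosis genes. These medians were -0.0623 and 0.0064 without both length-skewed libraries, and -0.0678 and 0.0007 without WNT3A 6 h replicate 2 alone. At 18 h, edgeR called 0 of 41 members and 0.0% of all genes; DESeq2 called 0 (0.059% of all genes), and 3 (MCM6, CCNB2 and KIF20A) had an unadjusted p under 0.05 (4.12% of all genes). With CHIR99021 36 of 41 values were below 0, and the median log2 difference was -0.08 in the replication genes and -0.19 in the mitosis genes, against 0.0021 for all genes. The replication median was 0.0262 without WNT3A 18 h replicate 2 and -0.0439 without CHIR99021 18 h replicate 2, while the mitosis median stayed between -0.243 and -0.135 on leaving out 1 library at a time. KIF20A was lower by 0.28 ± 0.12 and CCNB2 by 0.33 ± 0.12 on the log2 scale, each with an edgeR adjusted p of 1.0. The 95% interval lay within 2-fold either way for 39 of the 41 genes at 18 h and 36 at 6 h.

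The spread between replicates followed transcript length. The log2 difference between replicate 2 and replicate 1 went up with the length of the gene's longest transcript in mTeSR1 (Spearman 0.557 over 41 genes) and WNT3A 6 h (0.562), and down in WNT3A 18 h (-0.453), CHIR99021 6 h (-0.288) and CHIR99021 18 h (-0.462). These correlations describe the libraries: the genes share them, and no p is given. MKI67, with the longest transcript (12678 bases), differed by 1.28 and 1.79 on the log2 scale in mTeSR1 and WNT3A 6 h, and CENPF (10307 bases), a kinetochore protein, by 0.80 and 1.34. CENPE (8612 bases), the kinesin of the kinetochore, differed by 0.44 in mTeSR1, less than POLA1 (0.75) and ORC1 (0.60), and by 1.198 in WNT3A 6 h. An offset fitted to each library's length trend brought 31 of the 41 changes after 18 h of WNT3A nearer to 0 and left 30 above 0. It took MKI67 from -0.59 to -0.24 and CENPF from -0.38 to -0.10. On the upper side it took UBE2C from 0.52 to 0.30, PCNA from 0.52 to 0.34, AURKB from 0.56 to 0.39 and CDC20 from 0.15 to 0.0042. KIF20A went from 0.54 to 0.50, and CENPE from 0.37 to 0.57. After 18 h of CHIR99021 it left 20 of 41 changes above 0. Mitochondrially encoded genes took 6.73% of the counts in mTeSR1 replicate 2 and 5.37% in WNT3A 6 h replicate 2, against 2.70% to 5.14% in the other 8, and their part in the pattern was not tested.

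**Figure D5:**
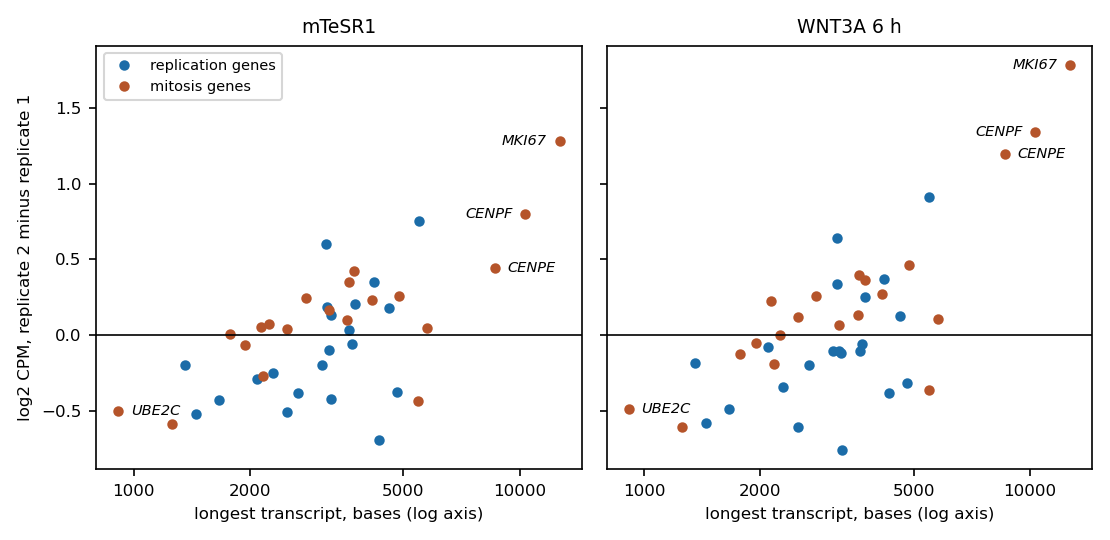
Log2 CPM of replicate 2 minus replicate 1 (vertical axis) against the length of the gene's longest transcript in bases (horizontal log axis) for the 41 genes in mTeSR1 (left) and WNT3A 6 h (right), blue for replication and brown for mitosis genes. MKI67, CENPF and CENPE stand at the upper right and UBE2C at the lower left of both panels.

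Other genes of the same processes were read from lists of their own, beside the shares of all genes called (0.433%, 2.1%, 0.0197% and 2.78% by edgeR) or at an unadjusted p under 0.05 (6.16%, 13.6%, 4.74% and 19.6%) after WNT3A for 6 h and 18 h and CHIR99021 for 6 h and 18 h. Of 48 other replication genes tested, among them the remaining ORC, GINS, polymerase and RFC subunits, edgeR called 0 in each of the 4 comparisons with mTeSR1; 3, 4, 1 and 7 had an unadjusted p under 0.05 (WNT3A 6 h and 18 h, CHIR99021 6 h and 18 h), and DESeq2 called 1 after 18 h of WNT3A and 0 elsewhere. That gene was DNA2, a nuclease-helicase that trims Okazaki fragments, which also passed edgeR with the replicate block. Of 62 other mitosis genes edgeR called 0 in each; the unadjusted p was under 0.05 for 1, 8, 1 and 7, and DESeq2 called 2 after 18 h of WNT3A and 0 elsewhere. These were CENPA, the centromeric histone, and NUF2, of the outer kinetochore, which also passed edgeR with the block. CENPA was at 9.05 and 8.51 CPM in mTeSR1 and at 15.8 and 19.2 with WNT3A at 18 h. The median log2 change of the 48 and the 62 genes after 18 h of WNT3A was 0.15 and 0.14.

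Upstream of the members, 1 of 34 regulators of G1 and of the entry into S phase passed edgeR in 3 comparisons with mTeSR1: CCND1 rose by 2.11 on the log2 scale after 6 h of WNT3A (adjusted p = 0.00306), 1.37 after 18 h (0.0106) and 1.28 after 18 h of CHIR99021 (0.00861). CCND1 was at 158 and 210 CPM in mTeSR1, 712 and 872 with WNT3A at 6 h, 473.5 and 477 at 18 h, 372 and 363 with CHIR99021 at 6 h, and 423 and 518 at 18 h, so all treated libraries lay above both controls. After 6 h of CHIR99021 its log2 change of 1.00 had an edgeR adjusted p of 0.297 and was the 1 call of DESeq2 on that list. CCND2, which codes for cyclin D2, was at 56.4 and 69.2 CPM in mTeSR1, 123.5 and 157 with WNT3A at 6 h and 136 and 123.2 at 18 h. DESeq2 called it after both times of WNT3A, and edgeR with the replicate block at 18 h, while edgeR without the block gave an adjusted p of 0.134 at 6 h and 0.0826 at 18 h. From 6 h to 18 h of WNT3A, DESeq2 called 2 genes of the list, CCND1 and E2F5, an E2F factor. Of the 34, the unadjusted p was under 0.05 for 6, 5, 1 and 10 in the 4 comparisons with mTeSR1. Of 23 cell cycle inhibitors tested (CDKN2A, CDKN2B and CDKN2C were too low), KLF4, a factor also known from pluripotency, rose by 1.90 after 18 h of CHIR99021 (edgeR adjusted p = 0.0315), and edgeR called 0 in the other 3 comparisons with mTeSR1, where the unadjusted p was under 0.05 for 2 to 5 and DESeq2 called 0, 2 (KLF4 and RB1) and 0. Of 18 subunits and partners of the anaphase-promoting complex and mitotic exit, edgeR and DESeq2 called 0 in all 4, with 0 or 1 at an unadjusted p under 0.05.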

How the data were processed

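Bulk RNA was read as paired 150-base reads after poly-T selection, per the labels' protocols. The authors deposited 1 table of estimated counts per gene, not scaled between libraries. Per the submitters' processing notes, Salmon 1.8.0 and GRCh38 were used. The sources used here do not give the transcript set. The deposited estimated counts were summed per symbol and rounded to whole numbers. Reads of near-identical genes may have been split by the estimation.

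edgeR 4.0.16 (R 4.3.3) fitted all 10 libraries together: TMM scaling, genes kept by filterByExpr (minimum count 10, minimum total 15), robust quasi-likelihood test, Benjamini-Hochberg adjustment over all genes tested. A gene was called at adjusted p under 0.05. Comparisons with CHIR99021 18 h, and the difference in change over time, were fitted with a block for repeat, because both those libraries came from repeat 2. The other comparisons had none in the main fit, and their fit with the block is reported as an alternative. The repeats come from the series' design text, and the numbers are taken to pair the libraries. Deviations of same-numbered libraries correlated at 0.26 to 0.59 over 6 pairs of groups. The highest value was that of mTeSR1 with WNT3A 6 h, whose replicate 2 libraries share the length skew. The libraries come from 1 cell line, and p-values measure the spread between them. For CHIR99021 18 h the SD is between 2 libraries of 1 repeat. The block does not supply the missing spread between repeats of that group. Scripts were tested on simulated data. DESeq2 1.42.0 was an alternative. Lengths are those of the longest GENCODE 29 transcript.

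The genes named are all members called in any comparison, the 3 highest and 3 lowest changes per set in each comparison with mTeSR1, 14 fixed cell cycle genes, and genes of the cell cycle lists called against mTeSR1. E2F5 is named as well. Members whose groups did not overlap, had an unadjusted p under 0.05 or stood out in a level or length are named too, chosen after their values were seen. The members and lists were chosen with earlier results of these data known.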

Additional observations from a re-analysis of the deposited data

How the results depend on the processing

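No member was called in the reported comparisons, so no call could be lost; of 2898 recomputed values of single genes, 282 changed sign and 11 were called under an alternative. With the replicate block, which pairs the libraries by repeat, 1 member was called after 18 h of WNT3A against mTeSR1 and 1 from 6 h to 18 h of WNT3A, KIF20A in both. With an offset for transcript length and the replicate block, 2 members were called in the first (KIF20A and UHRF1) and 4 in the second (KIF20A, MAD2L1, UBE2C and UHRF1). MAD2L1 (5468 bases) and UHRF1 (4309 bases) are longer than the median member (3208 bases). Both were nevertheless lower in replicate 2 than in replicate 1 of mTeSR1 and of WNT3A 6 h, the reverse of the length trend. How far their calls depend on the length used for the offset was not tested. From 6 h to 18 h of WNT3A, DESeq2 called 1 member and the fit with no filter on low counts called 1, UBE2C in both. Leaving out 1 library at a time gave 0 to 1 members called after 6 h of WNT3A, the call being CENPE (log2 1.17, edgeR adjusted p = 0.0429) without WNT3A 6 h replicate 1. That fit left the length-skewed replicate 2 (CENPE at 166 CPM, against 72.5 in replicate 1) as the lone WNT3A 6 h library, which is assumed to vary like the other groups. Leaving out 1 library gave a median log2 change of the replication genes of 0.0196 to 0.198 from 6 h to 18 h of WNT3A, and of -0.0997 to 0.0262 for CHIR99021 against WNT3A at 18 h. The last was above 0 without WNT3A 18 h replicate 2. Scaled by library totals, the replication genes summed to 4293 CPM in mTeSR1, 4486 with WNT3A at 6 h and 4490 with CHIR99021 at 6 h, so the order of the last pair turned. The cause was not tested. The fit without the 2 length-skewed libraries was chosen after seeing the data.

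Over all genes, edgeR called 159 genes higher and 161 lower after 18 h of WNT3A, 315 and 436 with the replicate block, 326 and 484 by DESeq2, and 234 and 342 with no filter. After 6 h of WNT3A the counts were 59 and 7, 140 and 28 with the block, and 205 and 44 by DESeq2. After 18 h of CHIR99021 they were 176 and 248, 101 and 80 without the block, and 400 and 518 by DESeq2. From 6 h to 18 h of WNT3A they were 7 and 15, 87 and 192 with the block, and 128 and 287 by DESeq2. With 2 libraries a group, the 95% interval of 33 to 40 of the 41 members lay within 2-fold either way. The half-width of the interval at the median member was 0.38 on the log2 scale in comparisons fitted without the block. It was 0.32 in those of CHIR99021 18 h, fitted with it.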
